A study of Mus musculus with 12 samples.

Results

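Potassium channel genes were taken as every gene on the array whose symbol begins with Kcn followed by another letter. Of the 27827 gene symbols on the array, 87 met this rule, with 129 probes on 147 spots. They encode the pore-forming subunits of voltage-gated, inwardly rectifying, leak, calcium-activated and sodium-activated potassium channels and the auxiliary subunits that assemble with them. Kcnq1ot1, an antisense RNA that shares the name, encodes no channel and is counted among the 87. Each gene stands for its brightest probe, by the mean over the 12 arrays.

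Potassium channels let potassium leave the cell along its gradient, which holds the resting potential near its negative value and ends each action potential. Voltage-gated members set the width and timing of spikes, inward rectifiers and leak channels set the resting potential, and calcium-activated members slow firing after a burst. In the hypothalamus they shape the firing of peptide neurons, and in astrocytes they take up potassium that neurons release.

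RNA came from the hypothalamus of male ICR mice, an outbred stock, with no genetic change named. Mice were given drinking tubes from 3 weeks of age, had water alone until experimental day 5, and were killed on day 51 by the sample labels. The design text of the series differs, with drinking until day 57. The water group drank water throughout, and its 3 arrays each held RNA of 3 mice. Alcohol mice could choose between water and 5% or 10% alcohol, and their 9 arrays each held RNA of 1 to 3 mice, with 3 arrays for each drinking pattern, namely low, early high and late high. Some pools joined mice of both strengths, and the sample labels name no strength for a pool. Replicates are therefore pools of different mice on 1 array each, and the p-values measure the spread between such pools. In whole tissue, fewer cells of a type and less RNA per cell cannot be told apart.

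The unit throughout is the log2 signal intensity minus the 75th percentile of the array, so that 0 is a bright probe and -5 a dim one, and levels are compared only within a probe. Between 67.0% and 79.3% of the spots of an array were well above background, and the number of arrays limits the precision. Each of 3 slides carried 4 arrays. The water pools shared slide 1 with low pool 1, slide 2 held low pools 2 and 3 with early high pools 1 and 2, and slide 3 held early high pool 3 with the 3 late high pools. Slide 1 was scanned on a different day from slides 2 and 3, so no high drinker pool shared a scan day with water. No slide held water beside early or late high drinkers, so a slide effect can be fitted in those comparisons only through the low and early high pools, which span slides, with 6 residual degrees of freedom. Of the hypothalamic markers on the array, 8 of 9 (Pomc, Agrp, Npy, Hcrt, Pmch, Avp, Oxt and Trh) were well above background on all 12 arrays, and Sim1 was on 11.

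Of the 87 potassium channel genes, 67 were well above background on all 12 arrays, 17 on 1 to 11 arrays, and 3 (Kcnj1, Kcnmb3 and Kcnv2) on none. The tests covered 82, and Kcng3, Kcnj1, Kcnk16, Kcnmb3 and Kcnv2 had too few usable spots. A gene was called at an unadjusted limma p under 0.05, and its share of calls is set beside that of all genes tested, each by its brightest probe. In alcohol against water 4 of 82 members (4.88%) were called, beside 5.46% of 21481 genes. The F-test over the 4 groups called 13 members (15.9%), beside 14.3% of 21002 genes. Low drinkers against water gave 8 (9.76%), beside 8.9%. Early high drinkers against water gave 3 (3.66%), beside 4.82%. Late high drinkers against water gave 14 (17.1%), beside 15.9%. High against low drinkers gave 13 (15.9%), beside 14.4%, and late against early gave 8 (9.76%), beside 12.8%. The share called among potassium channel genes was near that of all genes in each of these comparisons.

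The direction of the calls was also near the background under the scaling used. All 8 members called in low drinkers were higher than in water (9.76%, beside 8.1% of all genes), and none was lower, beside 0.8%. This balance moved with the scaling between arrays and with slide as a block. Quantile normalization gave 4 higher and 2 lower, median scaling 6 and 5, and no scaling 6 and 0. Over all genes these settings gave 4.74% higher and 4.19% lower, 6.53% and 4.25%, and 6.82% and 1.11%. A fixed slide block left 2 higher and 3 lower (Kcna2, Kcnc1 and Kcnj12), beside 1.81% and 1.02%. With that block the difference of low drinkers from water is that of low pool 1 alone, the drinker pool on the water slide. In late high drinkers 7 were higher (8.54%, beside 7.07%) and 7 lower (8.54%, beside 8.87%), and the split was 7 and 4 with quantile normalization (7.22% and 8.62% of all genes) and 19 and 4 with no scaling (14.8% and 2.97%). In high against low drinkers 3 were higher, beside 3.17%, and 10 lower, beside 11.3%. There the split turned to 6 higher and 3 lower with quantile normalization, 11 and 5 with median scaling and 12 and 5 with no scaling. Over all genes it was 7.42% and 6.52%, 12% and 5.4%, and 10.7% and 4.88%, so the direction of all genes moved as well. In late against early 3 were higher, beside 4.87%, and 5 lower, beside 7.91%, and the split was 4 and 2 with quantile normalization (5.43% and 6.25% of all genes) and 13 and 2 with no scaling (15.5% and 2.96%). The median log2 difference of the 82 members was 0.06 in alcohol against water and 0.09 in low drinkers against water, beside 0.02 and 0.04 over all genes. It was 0.05 in both early and late high drinkers against water, beside 0.01 over all genes in each.

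**Figure D1:**
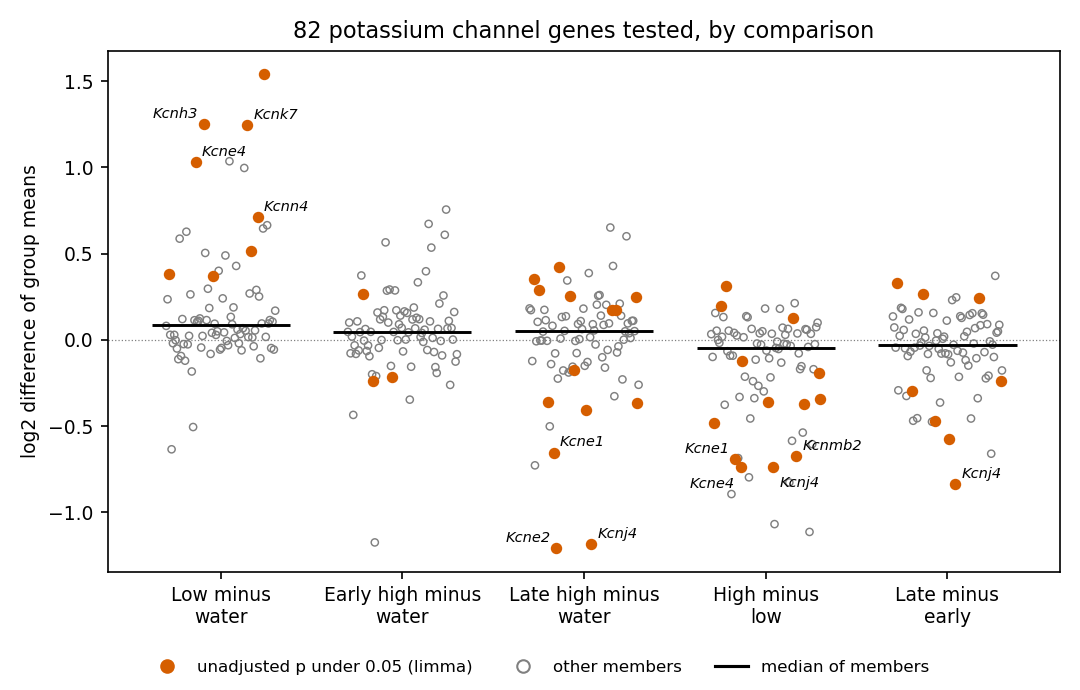
Log2 difference of group means (vertical axis) for each of the 82 potassium channel genes tested in 5 comparisons. Filled points had an unadjusted limma p under 0.05, lines are medians, and names are given to most called members beyond 0.6. Most genes lie near 0, and the called members of low drinkers all lie above it.

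Kcne4 alone passed an adjusted p of 0.05, in low drinkers against water (1 of 82 members, beside 0.252% of all genes tested). By limma, adjusted over all probes, no member passed in alcohol against water, where 0% of all genes passed, or in early high against water, late high against water and late against early, where 0% passed as well. None passed in the F-test over the 4 groups, beside 0.00476%, or in high against low, beside 0.0286%. The unadjusted counts for these comparisons are those given above. Without low pool 1, 10 of 82 members passed in low drinkers against water, beside 8.32% of all genes. In high against low drinkers 10 passed, beside 8.05%. By unadjusted p 19.5% and 23.8% of all genes were then called. The low drinkers then shared no slide or scan day with water, so drinking cannot be told apart from either in that comparison.

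Kcne4 encodes a single-pass membrane subunit that joins voltage-gated channels of the Kcna and Kcnq families and lowers their current. Its probe, the only one for the gene, lies at chr1:78815838-78815897 on the plus strand of mm9. Its first 30 of 60 bases, and those of Kcna3 at chr3:106840513-106840572 on the plus strand, are shown because these are the members whose 3 low drinker arrays all lay above the 9 others.
Kcne4: gagaaagatgtgttgacttaaagacacagt
Kcna3: agtagtaaccatgacaactgttggttatgg

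The Kcne4 level was -5.41, -5.12 and -5.42 in the water pools and -4.18, -4.18 and -4.51 in the low drinker pools. It was -5.17, -5.08 and -5.22 in the early high pools and -4.86, -4.96 and -4.87 in the late high pools. The low drinker arrays were the highest 3 of the 12, the late high arrays came next, and the low and water arrays did not overlap.

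Kcne4 rose in low drinkers by 1.03 on the log2 scale (SE 0.11, a 2.04-fold difference, limma adjusted p = 0.0152). The mean was -4.29 ± 0.19 (SD, n = 3) against -5.32 ± 0.17 (SD, n = 3) in water. In high against low drinkers the log2 difference was -0.74 (SE 0.10, limma adjusted p = 0.0568), and in late high drinkers against water it was 0.42 (SE 0.11, limma adjusted p = 0.138). Neither was called under every setting: quantile normalization gave -0.30 (limma adjusted p = 0.483) in the first, and normexp gave 0.09 (limma adjusted p = 0.756) and quantile normalization 0.40 in the second, all with an unadjusted p over 0.05. Both slides that held low drinkers beside another group gave the same direction: low pool 1 lay 1.14 above the mean of the water pools on slide 1, and the early high pools on slide 2 lay 0.78 below low pools 2 and 3. The 5 pituitary markers, 3 of them well above background on all arrays, also set low apart from high drinkers, with sums of 6.90 to 9.401 in low, 0.911 to 3.37 in early high, 3.93 to 6.44 in late high drinkers and 3.25 to 12.4 in water on the linear scale. Low pool 1 had the highest level of Gh (-0.93) and Prl (0.36) of the 12 arrays. The part of pituitary tissue in the difference between high and low drinkers was not tested.

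The Kcne4 probe was dim. Its unscaled signal was 40.6 to 45.5 in the water pools and 67.1 to 95.9 in the low pools, where the local background was 20 to 25, and it was well above background on 11 arrays, all but early high pool 1. Over 24 alternatives the adjusted p ran from 0.00223 to 0.875 and was under 0.05 in 18, among them the fit without low pool 2 (0.97, limma adjusted p = 0.0408). It was over 0.05 with slide as a fixed block (limma adjusted p = 0.225), without water pool 1 (0.0626) or water pool 3 (0.0826), with no filter on dim spots (0.0903), with quantile normalization (0.558) and by the methods' unpaired test (0.875). Quantile normalization lowered the log2 difference to 0.45 and normexp background correction to 0.59. Kcne4 is also made in smooth muscle, and the summed level of 6 pericyte and smooth muscle markers, all well above background on the 12 arrays, was 20.6 to 23.6 in low drinkers against 20.8 to 22.2 in water (linear scale, relative to the 75th percentile of the array). Of these markers Tagln alone did not overlap, at 0.62 to 1.13 in low drinkers and 0.51 to 0.58 in water (log2). The part of smooth muscle in the Kcne4 value was not tested.

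Kcna3 encodes a pore-forming subunit of delayed rectifier channels, known from lymphocytes, microglia and neurons. The Kcna3 level was -3.79, -3.55 and -3.68 in water and -3.21, -3.17 and -3.48 in low drinkers. It was -3.94, -3.72 and -3.58 in early high and -3.72, -3.79 and -3.87 in late high drinkers. The low drinker arrays were again the highest 3, and the other groups overlapped.

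The Kcna3 log2 difference was 0.38 in low drinkers against water (SE 0.11, limma adjusted p = 0.445) and -0.48 in high against low drinkers (SE 0.10, limma adjusted p = 0.102). Low pool 1 lay 0.46 above the water pools on slide 1, and the early high pools lay 0.51 below low pools 2 and 3 on slide 2. The value against water was not called with quantile normalization (0.11), median scaling (0.24) or no scaling (0.30). In high against low drinkers quantile normalization gave -0.24, which was not called. The microglial list (5 of 5 markers well above background on all arrays) summed to 8.78 to 9.26 in low drinkers and 9.05 to 9.86 in water on the linear scale, and its part in the Kcna3 value was not tested. Of the 80 members with a value on every array, Kcne4 and Kcna3 (2.5%) had all low drinker arrays above all others, beside 0.763% of 19653 genes.

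**Figure D2:**
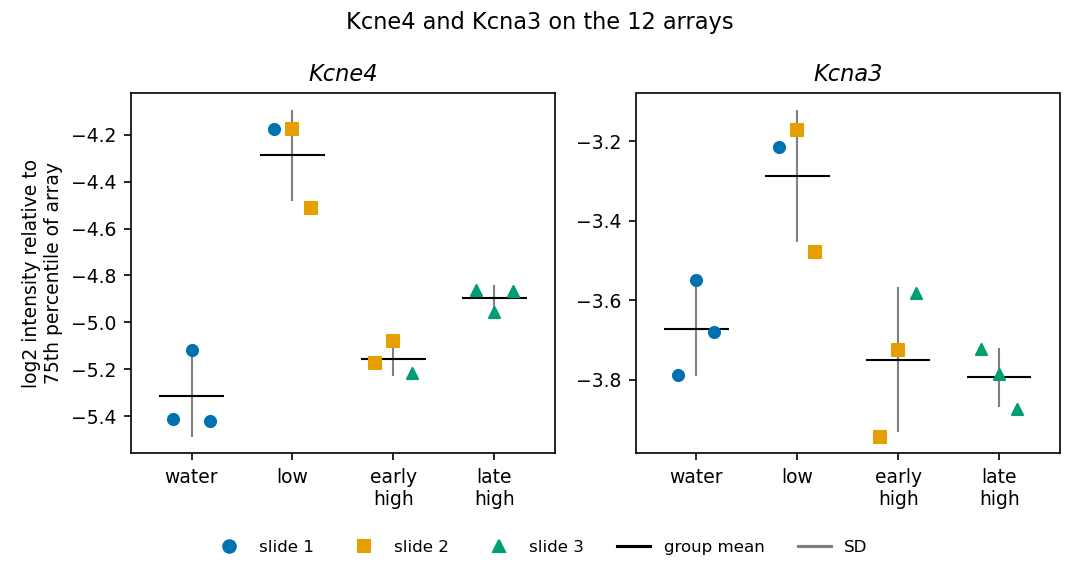
Kcne4 and Kcna3 levels (log2 intensity relative to the 75th percentile of the array) on each of the 12 arrays, by group, with colour and shape for the slide, lines for the mean and bars for the SD. The 3 low drinker arrays are the highest for both genes, on slide 1 as well as slide 2.

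Other members called in low drinkers had dim probes. They included Kcnh3 (a voltage-gated subunit), Kcnk7 (a leak channel subunit with little known current), Kcnn4 (a calcium-activated channel), Kcnmb2 (a BK auxiliary subunit) and Kcnip2 (a calcium-binding partner of the Kcnd channels). Their log2 differences from water were 1.25 for Kcnh3, 1.25 for Kcnk7, 0.71 for Kcnn4, 0.52 for Kcnmb2 and 0.37 for Kcnip2. Without low pool 2 the differences were 0.67 for Kcnk7, 0.62 for Kcnh3, 0.27 for Kcnn4, 0.36 for Kcnmb2 and 0.17 for Kcnip2, and of these Kcnk7 alone was still called. Kcne4 and Kcna3 were still called as well, and the count of members called fell to 4, beside 4.46% of all genes.

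Low pool 2 stood apart in its dim probes. Among the 41 dimmer members its level exceeded the mean of low pools 1 and 3 by a median of 0.66 on the log2 scale, beside 0.41 over the genes of the whole array below the same level (-1.76). Among the 41 brighter members the median was 0.06, beside -0.0022 over the genes above it. It was the highest of all 12 arrays for 25 of the dimmer members and 3 of the brighter ones, beside 4740 of 8882 dimmer and 1007 of 12120 brighter genes of the whole array.

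On slide 1, where low pool 1 sat beside the water pools, the low minus water value was -0.01 for Kcnmb2, 0.03 for Kcnip2, 0.07 for Kcnh3 and 0.07 for Kcnn4. It was 0.37 for Kcnk7. A second probe for Kcnh3 gave -1.04 (SE 0.60), the opposite direction, with 4 arrays well above background.

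**Figure D3:**
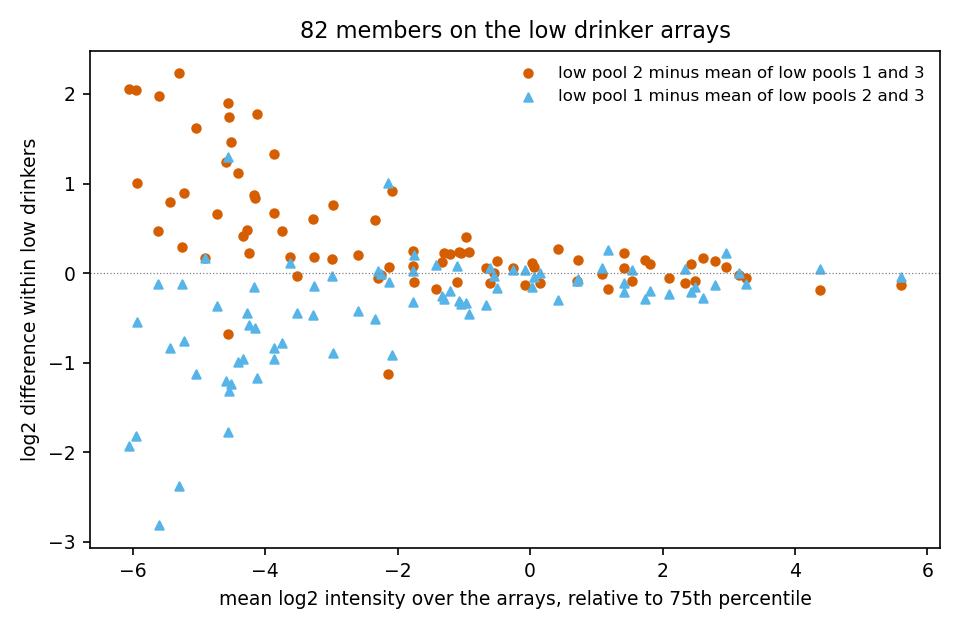
Level of each of the 82 members on low pool 2 relative to low pools 1 and 3 (circles), and on low pool 1 relative to low pools 2 and 3 (triangles), as log2 differences against the mean level over the 12 arrays. Circles lie well above 0 at the dim end and near 0 at the bright end.

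In alcohol against water, which joins the 3 drinking groups, the 4 members called were Kcnq3, Kcnk7 and Kcne4, all higher, and Kcnh8, lower. Kcnq3 encodes a subunit of the M-channel, a slow current that holds neurons back from firing repeatedly. Its level was -4.94, -4.97 and -5.26 in water. In the 9 alcohol arrays it ran from -5.22 through a median of -4.43 to -3.58, and the lowest of these was low pool 1, inside the water range. The log2 difference was 0.62 (SE 0.24, limma adjusted p = 0.819), and an exact permutation test over the 220 ways to choose 3 of 12 arrays gave a 2-sided p of 0.0273, where the smallest possible is 0.00455. With slide as a block the Kcnq3 value was -0.16, since low pool 1 is the only alcohol pool that shared a slide with water.

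Kcnk7 was -5.02, -5.11 and -5.42 in water and -4.82 to -2.78, with a median of -4.56, in the alcohol arrays. All 9 alcohol arrays lay above the water arrays. The log2 difference was 0.86 (SE 0.36, exact permutation p = 0.05), and a second Kcnk7 probe, well above background on 7 arrays, gave 0.48 (SE 0.32). With slide as a block the value of the brightest probe was 0.37 and was not called. The exact permutation tests took no account of slide. Kcnn4 was the other member with no overlap, at -4.12, -4.12 and -4.14 in water and -4.11 to -2.53 in alcohol, so that the nearest arrays of the groups lay at -4.12 and -4.11. These 2 of 80 members (2.5%) stand beside 1% of all genes, and no member had all alcohol arrays lower, beside 0.366%.

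Kcnh8, a voltage-gated subunit of the ether-a-go-go class, was -2.09, -2.20 and -2.10 in water and -2.46 to -2.15, with a median of -2.29, in alcohol. The log2 difference was -0.16 (SE 0.07, exact permutation p = 0.0364), below the water mean on all 9 alcohol arrays. Kcnh8 was also called in early high drinkers, at -0.22 (SE 0.08), and in late high drinkers, at -0.18 (SE 0.08). With slide as a block it was -0.09 in alcohol, -0.22 in early high and -0.16 in late high drinkers, and was called in none of them. The comparisons of low, early high and late high drinkers with water share the 3 water arrays.

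In early high drinkers the 3 members called were Kcnc1, Kcne1l and Kcnh8. Kcnc1 encodes a fast delayed rectifier that lets neurons fire at high rates. It was 1.95, 1.91 and 1.88 in early high drinkers and 1.52, 1.77 and 1.65 in water. The low pools were at 1.36, 1.65 and 1.65 and the late high pools at 1.76, 1.84 and 1.86. All 3 early high arrays lay above the 9 others, which held for 1 of 80 members (1.25%), beside 0.254% of genes.

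The Kcnc1 log2 difference was 0.27 in early high drinkers against water (SE 0.09, limma adjusted p = 0.89) and 0.31 in high against low drinkers (SE 0.08, limma adjusted p = 0.162). On slide 2 the early high pools lay 0.28 above the low pools, but with slide as a block the difference from water was -0.0042 (limma adjusted p = 0.999). The other probes of Kcnc1 gave 0.11 (SE 0.06) and -0.12 (SE 0.09) in early high drinkers against water, so the probes disagreed. Kcne1l, an auxiliary subunit, was lower in early high drinkers by a log2 difference of -0.24 (SE 0.10), and with slide as a block the value was 0.06.

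Late high drinkers had the most members called against water, 7 higher and 7 lower, and 7 of 80 members had all 3 late high arrays outside the range of the other 9. Kcna4, Kcnab2 and Kcnmb4 lay above (3.75%, beside 2.94% of genes), and Kcnc4, Kcnj15, Kcnj16 and Kcnu1 lay below (5%, beside 5.25%). The brightest probes of 5 of these genes, and of Kcnj4, which had a larger difference, are shown by their first 30 of 60 bases, in the order in which the genes are described. The files give positions on mm9, and whether a probe lies in a coding exon or an untranslated region was not determined here.
Kcna4: caatactcttctgccttttaagtccagaat
Kcnab2: gacatgttaaccaagtgtttctgagaggtt
Kcnmb4: ccctcaaagaagtcggttttctttggaaag
Kcnc4: gggggaatttcatttcttttgtgtgtctcc
Kcnu1: atcaggcattaatccaagaaaaacctttgg
Kcnj4: gcatgactgtggtctgtgctcttgattctc

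Kcna4, which encodes an inactivating A-type channel found in axons, was 1.15, 0.84 and 0.92 in late high drinkers. It was 0.58, 0.58 and 0.71 in water, 0.60, 0.74 and 0.60 in low drinkers, and 0.69, 0.50 and 0.73 in early high drinkers. The late high arrays lay above all others. The log2 difference from water was 0.35 (SE 0.09, limma adjusted p = 0.141), and on slide 3 the late high pools lay 0.24 above early high pool 3. Its probe lies at chr2:107138074-107138133 on the plus strand of mm9.

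Kcnab2 encodes a cytoplasmic beta subunit of the Kcna channels. It was 2.65, 2.70 and 2.68 in late high drinkers and 2.38, 2.49 and 2.30 in water, with a log2 difference of 0.29 (SE 0.09, limma adjusted p = 0.189). Early high pool 3, on the same slide as the late high pools, was at 2.65, and the mean of the late high pools exceeded it by 0.03. The low pools were at 2.29, 2.33 and 2.55 and early high pools 1 and 2 at 2.47 and 2.37.

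Kcnmb4 encodes the neuronal beta subunit of the BK channel, which calcium and voltage open together. It was 2.45, 2.46 and 2.55 in late high drinkers and 2.36, 2.31 and 2.26 in water, with a log2 difference of 0.17 (SE 0.06, limma adjusted p = 0.237). The late high arrays were the highest 3, and within slide 3 the difference from early high pool 3 was 0.14. Kcnma1, the pore of the BK channel, was 0.18 higher (SE 0.06, limma adjusted p = 0.198), and early high pool 3 at -1.02 lay within the late high range of -1.04 to -0.95.

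Kcnc4, a fast delayed rectifier of the same family as Kcnc1, was the member with the smallest p in late high drinkers. It was 0.22, 0.20 and 0.16 in water, 0.04, 0.12 and 0.05 in low drinkers, 0.16, 0.15 and 0.08 in early high drinkers, and -0.16, -0.29 and -0.05 in late high drinkers. The late high arrays were the 3 lowest. The log2 difference from water was -0.36 (SE 0.07, limma adjusted p = 0.0948), and within slide 3 the late high pools lay 0.24 below early high pool 3. Its probe lies at chr3:107241564-107241623 on the minus strand of mm9. Over 25 alternatives the adjusted p ran from 0.0226, without late high pool 3, to 0.675, with slide as a block.

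Kcnu1 encodes a pH-sensitive relative of the BK pore that is known from sperm. It was -2.89, -2.86 and -2.79 in water and -3.25, -3.25 and -3.14 in late high drinkers. Its log2 difference was -0.37 (SE 0.08, limma adjusted p = 0.119). Early high pool 3 was at -3.08, and the late high pools on its slide lay 0.13 lower. The probe was mapped to chr8:27042894-27044923 on the plus strand of mm9, an interval of 2030 bases for a probe of 60 bases.

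Kcnj4 encodes a strong inward rectifier of forebrain neurons. It was 0.07, 0.02 and 0.32 in water, 0.13, 0.15 and 0.05 in low drinkers, and -0.09, -0.13 and -0.41 in early high drinkers. In late high drinkers it was -1.64, -1.29 and -0.22. Late high pools 1 and 2 lay below all other arrays, and pool 3 lay inside the early high range.

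The Kcnj4 log2 difference from water was -1.19 (SE 0.29, limma adjusted p = 0.123), and without late high pool 3 it was -1.60 (limma adjusted p = 0.00164). Leaving out each array in turn gave -1.60 to -0.89, with a limma adjusted p of 0.00164 to 0.342. A second, dimmer Kcnj4 probe was not well above background in late high pool 1. It was -5.89 and -4.85 in late high pools 2 and 3, against -4.52, -4.55 and -4.33 in water. The probes were mapped to chr15:79314133-79314157 and chr15:79315390-79315449 on the minus strand of mm9, and the first interval spans 25 bases for a probe of 60. The summed level of 5 cortex and striatum markers, 3 of them well above background on all arrays, was 0.626 to 0.669 in late high drinkers, 0.724 to 0.886 in water, 0.811 to 0.875 in low drinkers and 0.685 to 0.835 in early high drinkers. The part of such tissue in the Kcnj4 value was not tested.

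**Figure D4:**
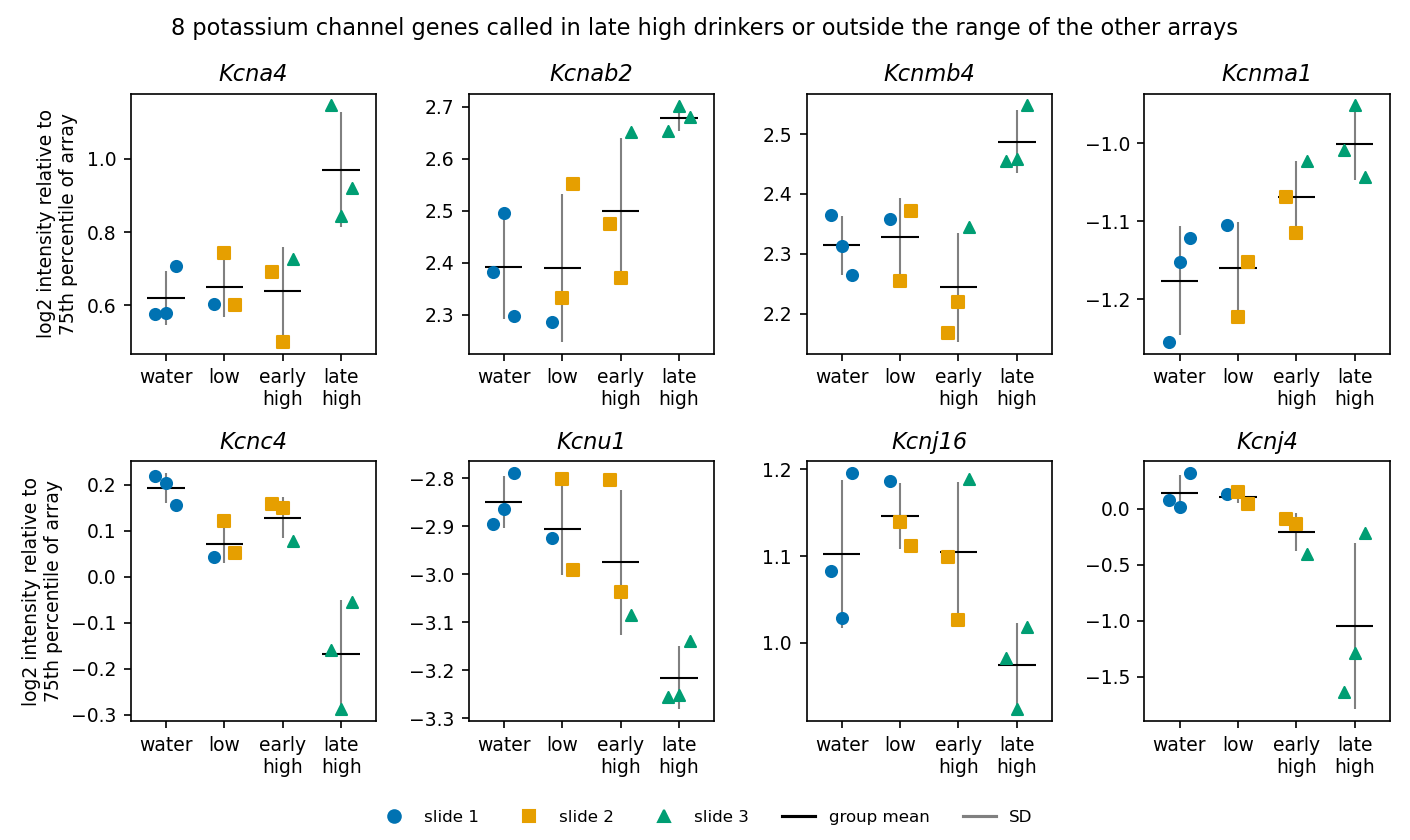
Levels (log2 intensity relative to the 75th percentile of the array) of 8 potassium channel genes on each array, by group, with colour and shape for the slide, lines for the mean and bars for the SD. Upper panels show genes that were higher in late high drinkers and lower panels those that were lower, and all late high arrays are on slide 3.

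The remaining members called in late high drinkers had smaller or dimmer differences. Kcnh5, a non-inactivating ether-a-go-go channel, was higher by 0.26 (SE 0.10, limma adjusted p = 0.271), and Kcnt2, a sodium-activated channel, by 0.25 (SE 0.11, limma adjusted p = 0.297). Kcne1, an auxiliary subunit of Kcnq1, was lower by a log2 difference of -0.65 (SE 0.28, limma adjusted p = 0.295), with 8 arrays well above background, and late high pools at -5.83, -5.66 and -5.72 beside early high pool 3 at -5.80 on the same slide.

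With slide as a block, linked through the low and early high pools, 7 members were called in late high drinkers, 1 higher (Kcne4) and 6 lower, beside 7.29% of all genes. Kcne4 was at 0.68, and the lower members were Kcnd1 (-2.63), Kcng4 (-1.36), Kcnmb2 (-1.07), Kcna2 (-0.76), Kcnn2 (-0.72) and Kcnk4 (-0.43). Kcne4 alone of these was also called without the block. Kcnc4 was at -0.32, Kcnu1 at -0.23, Kcnj4 at -0.86, Kcna4 at 0.15, Kcnma1 at 0.19 and Kcnmb4 at 0.07, in the same direction but not called, and Kcnab2 turned to -0.10. In early high drinkers the same block gave 7 members, all lower, beside 6.52% of all genes: Kcnd1 (-1.95), Kcna2 (-0.80), Kcnmb2 (-0.76), Kcnj11 (-0.75), Kcns2 (-0.72), Kcnj12 (-0.45) and Kcnk4 (-0.39). None of these 14 values passed after adjustment by limma. This block was chosen after the values were seen. Against water it adds the differences between groups within slides. Low pool 1 alone links water to the rest, and early high pool 3 alone links the late high pools. For Kcnd1 these differences were -0.58 on slide 1, -1.37 on slide 2 and -0.68 on slide 3. Slide 2 holds low pool 2, which stood apart in its dim probes, and Kcnd1 was well above background on 5 arrays.

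By class, in the fit without a slide block and beside 7.07% of all genes higher and 8.87% lower, the late high calls lay among the calcium- and sodium-activated genes (3 higher and 1 lower of 11 tested) and the auxiliary subunits of voltage-gated channels (2 higher and 2 lower of 12). The inward rectifiers had 2 lower of 13, the ether-a-go-go class 1 higher and 1 lower of 8, the Kcna genes 1 higher of 6 and the Kcnc genes 1 lower of 4. The Kcnd and Kcnq genes, the silent modifiers and the leak channels had none. No class was tested against the others.

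In high against low drinkers, Kcne4, Kcna3 and Kcnc1 had the smallest p values. Kcnmb2 came next, at -2.96 and -3.08 in low pools 2 and 3 and -3.80 in low pool 1, against -4.40 to -3.73 in the high pools, with a log2 difference of -0.67 (SE 0.18, limma adjusted p = 0.178). Low pool 1 lay inside the range of the high pools. In late against early high drinkers the members with the smallest p values were Kcnc4, at -0.30, Kcnmb4, at 0.24, and Kcna4, at 0.33 on the log2 scale, and none passed after adjustment.

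Kcnj15 and Kcnj16, inward rectifier subunits, had late high arrays below all others. Kcnj16, which pairs with Kcnj10 in astrocytes, was 0.98, 0.92 and 1.02 in late high drinkers and 1.08, 1.03 and 1.20 in water, and it was not called. The other probes of Kcnj16 gave log2 differences of -0.25 (SE 0.10) and 0.60 (SE 0.26), in opposite directions. Kcnj15 was dim, well above background on 8 arrays, with a log2 difference of -0.41 (SE 0.18). With slide as a block its difference was 0.00093. Other lists also differed on the late high arrays. The 5 thalamic markers summed to 7.90 to 14.4 there, 5.67 to 6.67 in water, 4.66 to 9.59 in low and 4.22 to 10.4 in early high drinkers, so that the late high range overlapped those of low and early high. The 3 blood markers summed to 74.7 to 102 there, 120 to 148 in water, 96.4 to 148 in low and 104.7 to 132 in early high drinkers. Their part in the late high values was not tested.

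Kcne2, an auxiliary subunit abundant in choroid plexus, varied widely among the water pools. It was -2.87, -3.68 and -4.96 in water, -3.47, -4.79 and -4.76 in low drinkers, -4.83, -4.87 and -5.32 in early high drinkers, and -5.70, -4.78 and -4.65 in late high drinkers. Water pools 1 and 2 and low pool 1 were the 3 highest arrays, all on slide 1. Ttr, the transport protein made by choroid plexus, was also highest on these arrays, at -1.06, -2.22 and -1.74, and was -5.80 in water pool 3. Ttr is 1 of 6 choroid plexus markers listed, and of the other 5 Folr1 alone was highest on the same 3 arrays, at -2.16, -2.29 and -2.36. Kl was highest in low pool 1, Clic6 in early high pool 2, Cldn2 in low pool 2 and Otx2 in water pool 1, followed by late high pool 3.

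The Kcne2 log2 difference in late high drinkers against water was -1.21 (SE 0.54, limma adjusted p = 0.311), and with slide as a block it was 0.57. The 6 choroid plexus markers, 4 of them well above background on all arrays, summed to 2.61 to 3.35 in water, 2.87 to 3.22 in low drinkers, 2.49 to 2.98 in early high drinkers and 2.33 to 2.62 in late high drinkers. The part of choroid plexus in the Kcne2 difference was not tested.

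**Figure D5:**
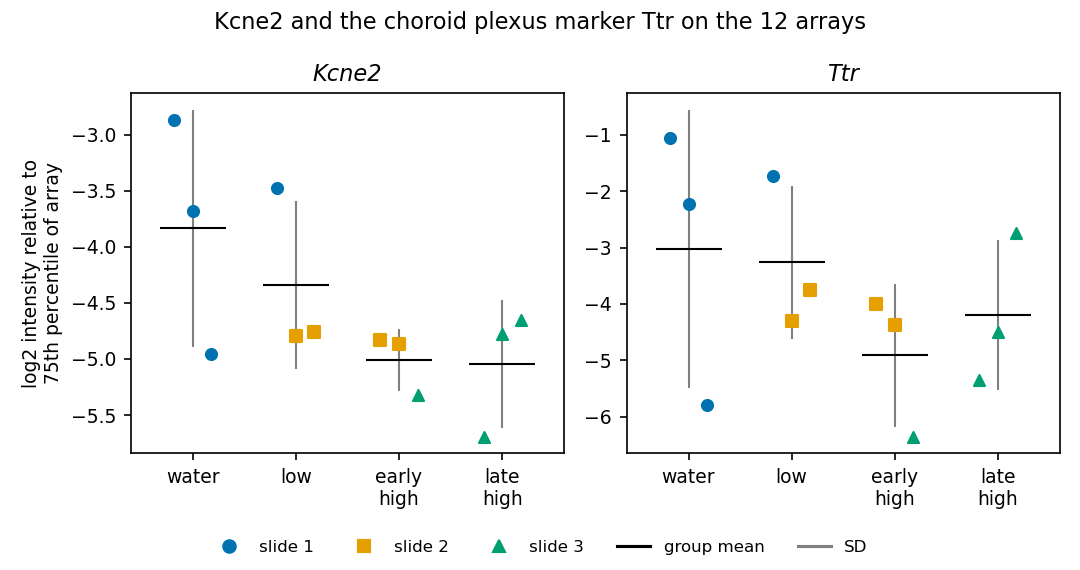
Kcne2 and the choroid plexus marker Ttr (log2 intensity relative to the 75th percentile of the array) on each array, by group, with colour and shape for the slide, lines for the mean and bars for the SD. Both are highest in water pools 1 and 2 and low pool 1, an order that 2 of the 6 markers listed, Ttr and Folr1, showed.

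Among the 6 Kcna genes Kcna1, an axonal delayed rectifier, ran from 3.07 to 3.57 over the 12 arrays, with no call in any comparison. Without a slide block, none of the 3 Kcnd genes, the dendritic A-type channels, was called in any comparison. With it Kcnd1 was called in early and late high drinkers against water, as given above, and in high against low drinkers, at -1.71. Kcnd2 differed from water by -0.03 in low, -0.09 in early high and -0.14 in late high drinkers (SE 0.11 each).

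By their brightest probes, other members listed by role were also without a call in any comparison when slide was not a block. With the block Kcna2 was called in low (-0.36), early high and late high drinkers against water and in high against low drinkers (-0.42), where Kcnc2 (-0.35) and Kcns1 (-1.25) were called as well. In alcohol against water Kcna2, an axonal channel, differed by 0.17 (SE 0.16), Kcnc2, a fast delayed rectifier, by 0.08 (SE 0.10), and Kcnab1, a beta subunit, by 0.02 (SE 0.12). A second Kcnab1 probe gave 0.71 (SE 0.32) in alcohol and 1.12 (SE 0.36, limma adjusted p = 0.508) in low drinkers against water, past the unadjusted threshold in both. Kcnip3, a calcium-binding partner of Kcnd channels, differed by 0.12 (SE 0.09). The ERG-class Kcnh7 differed by -0.04 (SE 0.20) and the silent modifier Kcns1 by 0.26 (SE 0.35).

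Kcnq5, another M-channel subunit, was steady, from -1.91 to -1.69 over the arrays, and its log2 difference in alcohol against water was 0.04 (SE 0.05). Kcnh2, the ERG channel of cardiac and neuronal repolarization, differed by 0.11 (SE 0.09).

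G-protein-gated inward rectifiers, through which opioid and GABA-B receptors silence neurons and which alcohol is known to open directly, were not called in any comparison by their brightest probes without a slide block, and with it Kcnj9 was called in high against low drinkers, at -0.31. Kcnj3 ran from -1.53 to -1.13, Kcnj6 from -4.67 to -3.90 and Kcnj9 from 2.41 to 2.80 over the 12 arrays. Their log2 differences in alcohol against water were 0.02 (SE 0.08), 0.10 (SE 0.14) and 0.15 (SE 0.08). A second Kcnj9 probe was past the unadjusted threshold in late high drinkers against water, at 0.23 (SE 0.09, limma adjusted p = 0.238), and against early high drinkers, at 0.20. Kcnj5 had usable spots on 10 arrays, with water pool 2 and low pool 1 left out of its fit, and was well above background on 7. Its spread was wide, and its alcohol against water difference of 0.23 had an SE of 1.00.

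Both pore subunits of the ATP-sensitive channel, which couples glucose to firing in hypothalamic neurons, were measured as well. Kcnj8 differed in alcohol against water by 0.08 (SE 0.11) and Kcnj11 by 0.20 (SE 0.20). With slide as a block Kcnj11 was called in early high drinkers, as given above, and in high against low drinkers, at -0.54. A second Kcnj8 probe gave -0.55 (SE 0.22, limma adjusted p = 0.269) in late high drinkers against water, where the brightest probe gave -0.03 (SE 0.13). Of their sulfonylurea receptors, Abcc8 lay between 1.54 and 1.79 on all arrays. Abcc9 was 0.80 in early high pool 2 and between -3.50 and -2.80 on the other 11 arrays.

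Kcnj10, the inward rectifier of astrocytes, ran from 5.38 to 5.74, with a log2 difference of 0.08 (SE 0.08) in alcohol against water. The leak channels Kcnk1, Kcnk2 and Kcnk3, which set the resting potential, differed by 0.13 (SE 0.11), 0.05 (SE 0.07) and -0.08 (SE 0.07). The small-conductance calcium-activated channels Kcnn1, Kcnn2 and Kcnn3, which produce the afterhyperpolarization, differed by -0.09 (SE 0.12), -0.06 (SE 0.13) and 0.19 (SE 0.22). Kcnt1, a sodium-activated channel, differed by 0.0017 (SE 0.05), ranging from 3.08 to 3.28. None of these 8 genes was called in any comparison by its brightest probe without a slide block. With it Kcnn2 was called in late high drinkers, as given above, and in high against low drinkers, at -0.55. A second, dimmer Kcnt1 probe gave -0.54 (SE 0.22) in high against low drinkers in the fit without the block.

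The list of channel partners outside the Kcn name held 26 genes, of which 24 were tested. None was called in alcohol or low drinkers against water, 1 in early high drinkers (beside 4.82% of all genes) and 6 in late high drinkers, 2 higher and 4 lower (beside 15.9%). In high against low drinkers 4 were called (beside 14.4%) and in late against early 5 (beside 12.8%). The partner with the smallest p was Lrrc55, a gamma subunit of the BK channel. It was -0.99, -1.28 and -0.90 in water, -1.31, -1.34 and -1.32 in early high drinkers and -1.56, -1.52 and -1.52 in late high drinkers.

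The Lrrc55 log2 difference in late high drinkers was -0.48 (SE 0.09, limma adjusted p = 0.105), and Lrrc38, another gamma subunit, differed by -0.45 (SE 0.11, limma adjusted p = 0.119). Cntn2, an axonal adhesion protein that gathers Kcna channels beside the nodes of Ranvier, had a log2 difference of -0.55 in late high drinkers against water (SE 0.17, limma adjusted p = 0.184).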

How the data were processed

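Hypothalamic RNA was hybridised to 1-colour Agilent mouse arrays, 12 in all. The authors extracted the intensity of each spot with Feature Extraction, which subtracted background and detrended it, and deposited it per array without scaling between arrays. The deposited table of the authors held the same intensity per probe on a linear scale and served as an alternative. From the deposited intensity, log2 values were taken and the 75th percentile of each array subtracted. Control and outlier spots were left out. A probe was tested where over 50% of the arrays of each group had a spot with a signal at least 2 times its estimated error. Spots of 1 probe were averaged, and the brightest probe stood for a gene. Tests used limma 3.58.1 in R 4.3.3 with Benjamini-Hochberg adjustment over all probes tested, one fit for alcohol against water and one for the 4 groups. Figures used matplotlib 3.10.9. The steps were tested on simulated data.

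Named were members listed by role, the up to 8 with the smallest p in each comparison, and those with no overlap between alcohol and water. The members and lists were chosen with earlier results of these data known. Kcnj13 and Kcnk9, on the list, were not analysed here, and some results are not reported here. RefSeq (GRCm38.p6) matched 77 of the 87 members by accession, none with another symbol. Replicate numbers did not pair the pools: same-numbered arrays correlated from -0.0893 to 0.183 in their deviations from group means. No arrays held identical values. Alternatives were other scalings (quantile, median, none), normexp background correction with offset 50, filters on dim spots, all probes of a gene, slide or scan day as a block (for early and late high drinkers against water added after seeing the data), replicate number as a block, the authors' table, the methods' unpaired test, and leaving out each array.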

Additional observations from a re-analysis of the deposited data

Results flagged for a closer look

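Among the 9 alcohol arrays, 15 of the 82 members had 1 array whose gap to its nearest neighbour exceeded the 95% limit of Dixon's test (0.493 of the range). Chance alone gives about 1 in 20, or 4.1 of 82. Over the 21481 genes tested, 10.1% had such an array, beside 18.3% of the members, and it was low pool 2 for 5.3%, beside 12.2%. Low pool 2 was that array for 10 of the 15, and was the highest each time. Its level was -2.60 for Kcnb2, -3.98 for Kcnd1 and -2.58 for Kcnh3. It was -3.37 for Kcnh7, -1.23 for Kcnj11 and -4.02 for Kcnk5. It was -2.78 for Kcnk7, -2.53 for Kcnn4, -2.63 for Kcnq1 and -3.07 for Kcns1. Low pool 1 was the highest for Kcne2, at -3.47, and the lowest for Kcnh2, at 0.157, for Kcnk12, at -2.90, and for Kcnt2, at -1.999. Late high pool 2 was the highest for Kcnt1, at 3.28. All values are log2 intensity relative to the 75th percentile of the array.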

How the results depend on the processing

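Of 939 values of single genes recomputed under the alternatives, 750 kept their direction and their side of an unadjusted p of 0.05, 177 kept the direction alone and 12 reversed. Of 174 counts of members called, 132 stayed within 1.5 times. The counts as reported were 4 for alcohol, 8 for low, 3 for early high and 14 for late high drinkers against water, 13 for high against low, 8 for late against early and 13 for the 4 groups. Quantile normalization gave 5 for early high, median scaling 7 for alcohol, and no scaling 23 for late high and 15 for late against early. Normexp correction gave 1 for alcohol and 8 for late high. Only probes well above background on all arrays gave 4 for low. Slide as a fixed block gave 2 for alcohol, 5 for low, 2 for late against early and 5 for the 4 groups. Linked through groups that span slides, a fit added after seeing the data, it gave 7 for early high and 7 for late high against water, and the same for scan day gave 8 for early high. Slide as a random block gave 1 for alcohol, 4 for low and 8 for late high. Scan day gave 2 for alcohol, 5 for low, 21 for high against low and 21 for the 4 groups. The methods' unpaired test gave 4 for low, 7 for early high and 6 for high against low. Leaving out 1 array gave 2 to 7 for alcohol, 4 to 20 for low, 2 to 6 for early high, 8 to 17 for late high, 9 to 21 for high against low, 5 to 11 for late against early and 9 to 26 for the 4 groups. Without low pool 1 the counts were 20 for low, 21 for high against low and 26 for the 4 groups, beside 19.5%, 23.8% and 24.4% of all genes, and without low pool 2 they were 7 for alcohol, 4 for low and 6 for early high. Without water pool 1 they were 2 for alcohol, 5 for low and 9 for late high. The low count was 4 without water pool 2 and 5 without low pool 3. The late high count was 9 without low pool 3, early high pool 1 or late high pool 3, and 8 without late high pool 2. Without early high pool 1, late against early gave 5. Over all genes, the share called in low against water ran from 4.46% to 19.5% when a low pool was left out. The cause of these moves was not tested. Without low pool 1, low drinkers shared no slide or scan day with water, and drinking cannot be told apart from either.

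Reversed values were Kcnf1 in high against low, 0.011 with median scaling and 0.0038 with no scaling, and Kcne4 in late against early, -0.0066 with normexp. With slide or scan day as a fixed block, Kcnq3 in alcohol was -0.16, and Kcnmb2 in low drinkers was -0.0062. With the linked blocks, Kcnc1 in early high drinkers was -0.0042 by slide and -0.0196 by scan day, Kcne1l was 0.058 and 0.016, and Kcnab2 in late high drinkers was -0.098 by slide. The replicate block gave 3 for alcohol, 8 for low, 3 for early high, 12 for late high, 12 for high against low, 9 for late against early and 12 for the 4 groups, and the numbers did not pair the pools. Dim probes, near the background, limit what these arrays resolve.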
